A study of Mus musculus with 44 samples.

Results

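Livers of 20 male C57BL/6N mice that did not run were compared here, 10 on a vitamin E-enriched diet and 10 on the control diet, out of 44 mice with 1 Affymetrix Mouse Gene 2.1 ST array each. The mice were chosen by their sample titles alone, sedentary vitamin E against sedentary control. Both diets were fed for 4 weeks to mice that were 11 to 12 weeks old at the end; vitamin E, given as α-tocopheryl acetate, was present at 2000 IU/kg in the enriched and 149 IU/kg in the control diet, and vitamin C at 100 mg/kg and 0 mg/kg. Sedentary mice were not placed on the treadmill, and food was withheld from them for 60 min, the length of the run. The other 24 mice, 12 per diet, ran for 60 min at 13 m/min and a slope of 14°, and they enter only as a shared estimate of the spread and as the second diet comparison. All mice were wild type, the vitamin C content differed together with vitamin E so that the effects of the vitamins cannot be told apart, and the control diet was not free of vitamin E.

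Vitamin E is a fat-soluble antioxidant that stops chains of lipid peroxidation in membranes. The liver takes it up with lipoproteins; the α-tocopherol transfer protein (Ttpa) loads it back onto lipoproteins, transporters and lipid transfer proteins such as Pltp move it between lipoproteins, and cytochrome P450 enzymes of the Cyp4f family shorten its side chain for excretion. In reporter and rodent studies, vitamin E forms have been linked to the pregnane X receptor (PXR), which together with the constitutive androstane receptor (CAR) controls Cyp3a and Cyp2c enzymes. Mice make their own vitamin C in the liver with the enzyme Gulo.

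The liver identity of the samples was plain: the hepatocyte markers albumin (Alb) and transthyretin (Ttr) had log2 values of 11.67 ± 0.07 and 12.13 ± 0.05 (SD, n = 10) in control-fed mice. Medians of the 20 arrays lay between 1.55 and 1.67 on the log2 scale, and the median correlation of an array with the other 19 lay between 0.947 and 0.960. Principal component 1 of the 20 arrays held 8.05% of the variance and set control mouse 3 apart, and component 2 held 7.06% and set vitamin E mouse 1 apart; neither ordered the mice by diet. The animals carry numbers beginning with 24 or with 27, 6 and 4 of the control-fed mice and 5 and 5 of the vitamin E mice, and some results are given within each number series as well. No label says what the number series stands for.

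No transcript differed between the diets at rest after adjustment for the number tested. The filter on expression (a group average over 4 on the linear scale) left 18522 probe sets, of which 0 passed an adjusted p of 0.05 in limma (0%), and the smallest adjusted p was 0.177, of a probe set without a gene symbol. At an unadjusted p under 0.05 there were 883 probe sets (4.77%), 518 with a higher mean on vitamin E (2.8%) and 365 with a lower one (1.97%). With a fold change of medians above 1.2 in addition, 379 higher (2.05%) and 289 lower (1.56%) probe sets were left. For 0 of the 18522 did the 10 vitamin E mice and the 10 control-fed mice not overlap (0%). Leaving out a mouse brought 1 probe set past the adjusted threshold in 2 of 20 cases: without vitamin E mouse 4 it was Dus4l (adjusted p = 0.0395), and without control mouse 2 the probe set with no symbol (difference of -0.93, adjusted p = 0.0447).

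The size of an effect that could have been missed can be read from the 95% intervals of the differences. The median half-width of the interval was 0.296 on the log2 scale. For 11729 probe sets (63.3%) the whole interval lay within 0.5 of 0, and for 16561 (89.4%) within 1. Among the 2909 probe sets with a mean over the 20 mice above 7, 2689 (92.4%) had the whole interval within 0.5. Mean differences above 0.5 in either direction were found in 922 probe sets (4.98%) and above 1 in 86 (0.464%), 39 of the latter lower with vitamin E. The balance of higher and lower calls depended on scaling, at 447 and 421 with quantile normalization and 640 and 294 with median centring, and in number series 27 alone it was 419 and 454. The mean was higher with vitamin E in 10374 probe sets (56%), and the median difference over all of them was 0.02. The 20 mice were separate animals, and their number limits the precision.

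**Figure D1:**
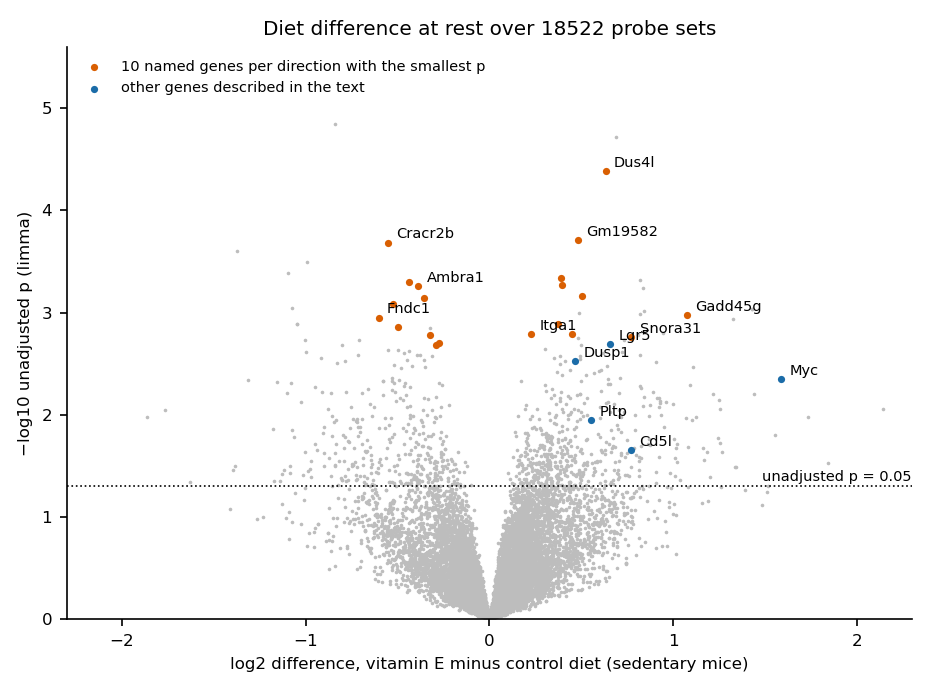
Mean log2 difference between sedentary vitamin E and sedentary control-fed mice (x axis, n = 10 each) against −log10 of the unadjusted limma p (y axis) for 18522 probe sets; orange points are the 10 single-symbol genes per direction with the smallest p, blue points other genes described in the text. The dotted line marks an unadjusted p of 0.05, which 883 probe sets passed; none passed 0.05 after adjustment.

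The higher transcript with the smallest p among single-symbol genes was Dus4l, a dihydrouridine synthase that modifies transfer RNA. Its log2 value was between 2.1 and 2.89 in control-fed mice (median 2.51) and between 2.36 and 3.46 in vitamin E mice (median 3.17), a difference of 0.63 (SE 0.14, unadjusted p = 4.09e-05, adjusted p = 0.252 in limma). Vitamin E mouse 4 was the lowest of its group at 2.36, and the other 9 were above every control-fed mouse. The difference was 0.52 in number series 24 and 0.74 in series 27. The gene is weakly expressed, near the expression filter in both groups.

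Other transcripts with higher means were of mixed function and mostly weakly expressed; Akr1b8 and C330018D20Rik had control means under the expression filter. Asb7, a substrate adaptor of a cullin ubiquitin ligase, differed by 0.39 (control-fed 3.80 to 4.54, median 4.09; vitamin E 4.09 to 4.83, median 4.52), Armc10, a protein with armadillo repeats, by 0.40, and Zfp703, a zinc finger transcriptional repressor, by 0.45. Itga1, the integrin α1 chain that binds collagen, had the narrowest spread of the 10: 5.38 ± 0.17 in control-fed and 5.61 ± 0.09 in vitamin E mice (SD, n = 10 each), differing by 0.23, with all 10 vitamin E mice above the control mean. Akr1b8, an aldo-keto reductase that reduces aldehydes, had a mean difference of 0.51 at very low values (1.06 to 1.77 against 1.39 to 2.73), and 6 of 10 vitamin E mice exceeded the highest control-fed mouse. The long non-coding RNAs Gm19582 and C330018D20Rik differed by 0.48 and 0.38. The small nucleolar RNA Snora31, of the class that guides pseudouridylation of ribosomal RNA, differed by 0.77 (2.67 to 3.89, median 3.22, against 3.17 to 4.62, median 4.26), and 7 of 10 vitamin E mice lay above all control-fed mice. At least 5 vitamin E mice above the highest control-fed mouse was seen in 312 probe sets (1.68%).

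Among the lower transcripts, Ambra1, Hdgfl2, Ddx41 and Taco1 were the well-expressed ones. Ambra1, a regulator of autophagy, was 5.31 ± 0.20 in control-fed and 4.93 ± 0.23 in vitamin E mice (SD, n = 10 each) and differed by -0.39 (unadjusted p = 0.000551, adjusted p = 0.752 in limma), and 5 of 10 vitamin E mice were below the lowest control-fed mouse. Hdgfl2, a chromatin reader related to hepatoma-derived growth factor, differed by -0.36, and 8 of 10 vitamin E mice, with a group median of 4.6, lay below the lowest control value of 4.80. Ddx41, an RNA helicase, differed by -0.32 and Taco1, an activator of the translation of a mitochondrial cytochrome oxidase subunit, by -0.27. Both differences were mainly in number series 24 (-0.49 and -0.44 against -0.13 and -0.08 in series 27). Cracr2b, a regulator of store-operated calcium entry, had the smallest p of the lower genes. It went from 1.34 to 2.87 (median 1.92) in control-fed and from 1.04 to 1.82 (median 1.5) in vitamin E mice, a difference of -0.55 (unadjusted p = 0.000206, adjusted p = 0.752 in limma). All its vitamin E values lay below the expression filter, so it was kept only through another group. Tap2, a subunit of the transporter that loads peptides for MHC class I, Prok1, a secreted prokineticin, Fndc1, a fibronectin domain protein, Nhlrc1, the ubiquitin ligase malin, and the homeobox gene Hmx3 differed by -0.44, -0.52, -0.60, -0.50 and -0.29, all from control means at or below 2.60. At least 5 vitamin E mice below the lowest control-fed mouse was seen in 172 probe sets (0.929%).

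**Figure D2:**
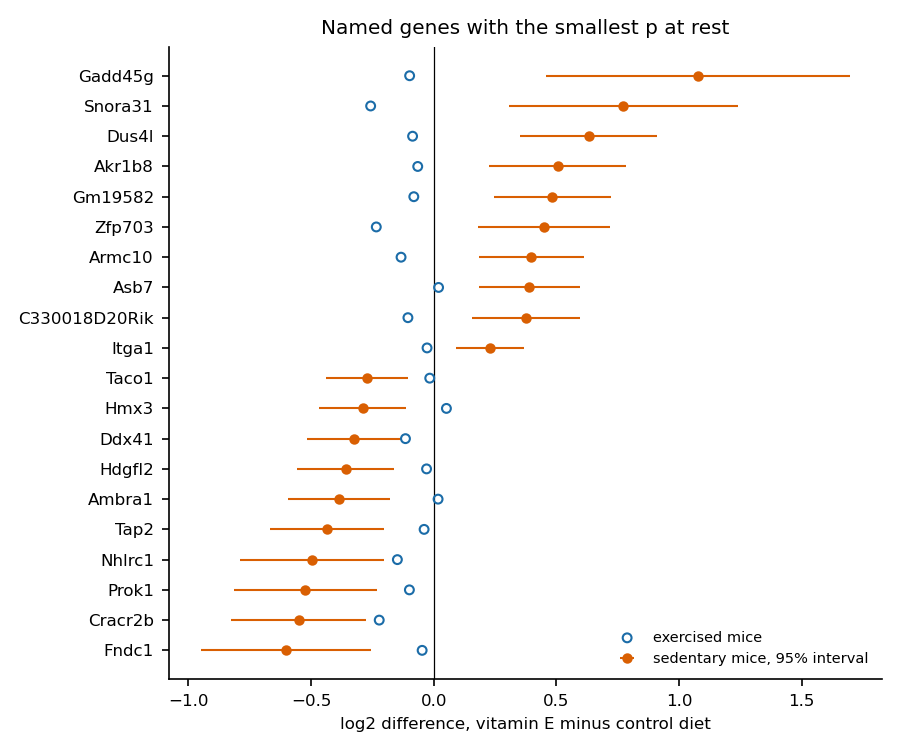
Log2 difference between diets (x axis) for the 10 higher and 10 lower single-symbol genes with the smallest p at rest; orange points and bars give the sedentary difference with its 95% interval (n = 10 and 10), open blue circles the difference in exercised mice (n = 12 and 12). The genes were picked by their sedentary values, which run from -0.60 for Fndc1 to 1.08 for Gadd45g, while the exercised values lie between -0.26 and 0.05.

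Pltp, the phospholipid transfer protein, was the only member of the vitamin E handling list at an unadjusted p under 0.05. This was 1 of 20 measured members, against 4.77% over all probe sets. In control-fed mice Pltp ran from 5.83 to 7.32 with a median of 6.32, and 7 of these mice were below 6.5 while mice 2, 6 and 9 were above 7. In vitamin E mice it ran from 6.48 to 7.76 with a median of 6.98, and 9 of 10 were above the control mean. The groups overlapped, and the difference was 0.55 (95% interval 0.13 to 0.98, adjusted p = 0.910 in limma; exact two-sided Wilcoxon rank-sum test, p = 0.0232), with 0.38 in number series 24 and 0.73 in series 27. Of the other 19 measured members none had an unadjusted p under 0.05. Ttpa was 8.06 ± 0.11 in control-fed and 8.12 ± 0.15 in vitamin E mice (SD, n = 10 each), differing by 0.06 (interval -0.08 to 0.20), afamin (Afm), a vitamin E-binding plasma protein, differed by -0.04 (interval -0.18 to 0.11), and the ω-hydroxylase Cyp4f14 by 0.12. The scavenger receptor Cd36 had the second smallest p of the list (difference of 0.31, unadjusted p = 0.0535), and the lipid exporter Abca1 differed by -0.06. The median of the 20 members was 0.04, and the intervals of 15 lay wholly within 0.5.

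Genes for making and moving vitamin C had differences near 0, although the enriched diet alone held vitamin C. None of 11 measured members was at an unadjusted p under 0.05, and all 11 had intervals within 0.5. Gulo, the last enzyme of vitamin C synthesis, differed by -0.01, and Slc23a1, the sodium-dependent vitamin C transporter of hepatocytes, by 0.10. The median of the list was 0.04.

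Antioxidant genes gave small mean differences as well. Of 24 antioxidant enzymes and selenoproteins, 0 were at an unadjusted p under 0.05 in limma, 22 had intervals within 0.5, and the median was 0.01; the cytosolic superoxide dismutase Sod1 was 10.95 ± 0.06 and 11.01 ± 0.06 (SD, n = 10 each). Of 25 NRF2 targets and glutathione enzymes, only Nqo1, a quinone reductase, had an unadjusted p under 0.05 (0.0488 in limma). The share over all probe sets was 4.77%. Nqo1 ran from 2.71 to 3.54 (median 3.31) on the control diet and from 2.84 to 4.28 (median 3.81) on vitamin E, with 7 of 10 vitamin E mice above all control-fed mice and mice 4, 6 and 8 below 3.1. The classical NRF2 targets Gclc, Gclm and Srxn1 differed by -0.10, -0.04 and -0.07, and the median of the list was 0.04. Hmox1, heme oxygenase, had a wide spread (4.05 to 6.65 against 4.97 to 7.21) and a difference of 0.47 whose interval went from -0.15 to 1.08; it was 0.91 in number series 24 and -0.10 in series 27. The 15 genes of lipid peroxidation and ferroptosis had a median of -0.01, 0 of them at an unadjusted p under 0.05 in limma.

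Among PXR and CAR targets, 17 of 21 measured members had a higher mean with vitamin E and 3 an unadjusted p under 0.05, against 56% and 2.8% over all probe sets. The list median was 0.10, or 0.09 in number series 24 and 0.10 in series 27. Without vitamin E mice 1 and 3 it was 0.06, and 14 of 21 were higher. After exercise 12 of 21 were higher, with a median of 0.03. Cyp2c29, an abundant epoxygenase, ran from 9.95 to 10.79 (median 10.51) on the control diet and from 10.48 to 10.87 (median 10.66) on vitamin E. Control mice 3 and 8 were at 9.95 and 9.99, and the other 18 mice lay above 10.2; the difference was 0.24 (unadjusted p = 0.0219). The carboxylesterase Ces2a differed by 0.29 (8.22 ± 0.19 in control-fed and 8.5 ± 0.13 in vitamin E mice, SD, n = 10; unadjusted p = 0.0153), and 7 of 10 vitamin E mice exceeded every control-fed mouse. Cyp2c55 was low (0.96 to 3.31, median 2.34, against 2.24 to 4.56, median 2.89) and differed by 0.74, with vitamin E mice 1 and 4 above 4. The principal PXR target Cyp3a11 differed by 0.23 (unadjusted p = 0.209), the CAR target Cyp2b10 by -0.18, and the receptors themselves, Nr1i2 and Nr1i3, by 0.04 and 0.10. The aryl hydrocarbon receptor list had only 3 measured members: Tiparp, a mono-ADP-ribosyltransferase, differed by 0.49 (unadjusted p = 0.0109) with 7 of 10 vitamin E mice above all control-fed mice, Nqo1 as given above, and Cyp1a2 by 0.08.

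The lists of lipid and energy metabolism had medians near 0 at rest. Cholesterol synthesis genes had 6 of 21 members with a higher mean, against 56% over all probe sets, and a list median of -0.07, which was -0.21 in number series 24 and 0.05 in series 27. Vitamin E mouse 1 had the lowest list mean of the 20 mice at 6.13, and without mice 1 and 3 the median was 0.01 and 12 of 21 were higher. The sterol isomerase Ebp alone had an unadjusted p under 0.05 (1 of 21, against 4.77% over all probe sets), with a difference of 0.14. Fatty acid and triglyceride synthesis had a median of 0.02 over 22 genes, and the desaturase Scd1 differed by 0.06 (interval -0.08 to 0.20). Of 29 genes of fatty acid oxidation and PPAR-α, Fgf21 and Vnn1 had an unadjusted p under 0.05, against 4.77% over all probe sets. Fgf21, a fasting hormone of the liver, differed by -0.62 (3.50 to 5.40, median 4.50, against 3.05 to 4.54, median 4.07, unadjusted p = 0.0359 in limma). Vnn1, a pantetheinase, differed by 0.46 (unadjusted p = 0.0485 in limma), and the list median was 0.01. Respiratory chain genes had intervals within 0.5 for all 30 members. None of the 7 transcripts the study followed by PCR had an unadjusted p under 0.05 in limma: Ppargc1a, a coactivator of gluconeogenic and mitochondrial genes, differed by 0.21 (interval -0.22 to 0.63), Pdk4, a kinase that shuts down pyruvate oxidation, by -0.09 (interval -0.91 to 0.73), Irs2, an insulin receptor substrate, by 0.04 (interval -0.49 to 0.57), Angptl4 by -0.11, Slc22a5 by 0.18, Cpt2 by -0.04 (interval -0.18 to 0.11) and Sgk1 by -0.26 (interval -0.61 to 0.10). The intervals of Pdk4 and Irs2 were wide and held differences in either direction, but none as large as 1. Adar, an editing enzyme of double-stranded RNA, differed by -0.27 (3.05 to 3.82, median 3.29, against 2.77 to 3.38, median 3.02; exact two-sided Wilcoxon rank-sum test, p = 0.0115), with 6 of 10 vitamin E mice below all control-fed mice, and Il21r by -0.29 (exact two-sided Wilcoxon rank-sum test, p = 0.0630). Neither passed adjustment in limma, where the lowest adjusted p when leaving out 1 mouse were 0.840 and 0.933.

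Markers of hepatocytes had differences close to 0. All 12 hepatocyte markers had intervals within 0.5, with a median difference of 0.01, and the mean of the list per mouse was 10.55 ± 0.07 against 10.56 ± 0.05 (SD, n = 10 each). The 7 periportal and 12 pericentral genes had medians of -0.03 and 0.04. The pericentral enzymes Glul and Cyp2e1 differed by 0.06 and 0.03, whereas Lgr5, a receptor of the Wnt pathway in cells around the central vein, ran from 2.31 to 3.98 (median 3.08) on the control diet and from 3.10 to 4.43 (median 3.80) on vitamin E. Control mouse 5 at 3.98 was above 7 of the vitamin E mice, and 9 of 10 vitamin E mice were above the control mean (difference of 0.66, unadjusted p = 0.00204; 0.28 in number series 24 and 1.05 in series 27). In whole liver, fewer cells of a type and less RNA per cell cannot be told apart.

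The listed Kupffer cell genes had higher means in the vitamin E group, most of all in a pair of mice. All 17 measured markers of these resident liver macrophages had a higher mean with vitamin E, against 56% over all probe sets. Their median difference was 0.44, against 0.02 over all probe sets. Cd5l, a secreted scavenger protein, and C1qa, a complement subunit, were higher at an unadjusted p under 0.05 in limma, against 2.8% over all probe sets. The mean of the list per mouse ran from 3.91 to 5.35 in control-fed mice (median 4.56) and from 4.20 to 6.18 in vitamin E mice (median 4.69). Vitamin E mice 1 and 3 stood at 6.18 and 5.84, the other 8 lay between 4.20 and 5.07 within the range of the control-fed mice, and control mouse 10 was the highest of its group. Cd5l was 6.64 and 6.21 in mice 1 and 3 and at most 5.32 in the other vitamin E mice, against 3.00 to 5.09 in control-fed mice, and its difference was 1.27 in number series 24 and 0.18 in series 27. Without these 2 mice the median of the 17 was 0.12 and 14 were higher, and Cd5l differed by 0.36 (unadjusted p = 0.226 in limma). Leaving out only mouse 1 or only mouse 3 gave a median of 0.30 or 0.29. The 2 mice are the highest on this same list, so leaving them out had to lower its mean difference. Leaving out control mouse 10 instead gave a median of 0.54. Both mice carry numbers beginning with 24; the median was 0.68 in that series and -0.03 in series 27, a contrast that was not tested. The haemoglobin scavenger receptor Cd163 kept 0.42 of its 0.44 without the pair. Macrophage genes outside the list were added after their values were seen. In number series 27, which lacks mice 1 and 3, Mertk, Adgre4, Ccl24 and Tlr13 differed by 0.40, 0.43, 0.73 and 0.29. Spic and Cxcl13 differed by -0.27 and -0.11 there.

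Mouse 1 also stood apart in acute-phase transcripts. The list mean was 10.08 in this mouse, against 8.37 to 8.88 in the other 9 vitamin E mice and 8.33 to 9.13 in the control-fed mice. Its serum amyloid Saa3 was 9.72 and its orosomucoid Orm2 10.98, where the other 19 mice reached at most 7.67 and 8.07. The 22 acute-phase genes had a median difference of 0.05 with all mice and of -0.04 without mice 1 and 3, and none passed an unadjusted p of 0.05 in limma. Of 12 neutrophil markers, 2 were measured, S100a8 and S100a9, and their mean was 5.56 in mouse 1 and 2.56 in mouse 3, against 1.1 to 1.6 in the other 8 vitamin E mice. In control-fed mice it ran from 1.06 to 3.98, with mice 1, 8 and 10 above 3. The part of these acute-phase and neutrophil values in the Kupffer cell result was not tested. NF-κB targets and interferon-stimulated genes had medians of 0.04 and 0.03, and of -0.03 and -0.01 without mice 1 and 3.

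Sinusoidal endothelial markers had a median of 0.12, and 11 of 14 had a higher mean with vitamin E and 2 an unadjusted p under 0.05, against 56% and 2.8% over all probe sets. Stab2, a scavenger receptor for hyaluronan, differed by 0.25 (unadjusted p = 0.0388) and Pecam1, an adhesion molecule of endothelium, by 0.24 (unadjusted p = 0.0403). Without mice 1 and 3 the median was 0.16. In number series 24 and 27 the medians were 0.04 and 0.06. Stellate cell and cholangiocyte lists had medians of 0.01 and 0.07 over 11 and 5 genes. Lymphocyte and granulocyte markers were mostly below the filter: 7 of 16 T and NK cell, 1 of 10 B cell and 2 of 12 neutrophil genes were measured, and none of these had an unadjusted p under 0.05. The neutrophil genes are given with the acute-phase transcripts above.

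**Figure D3:**
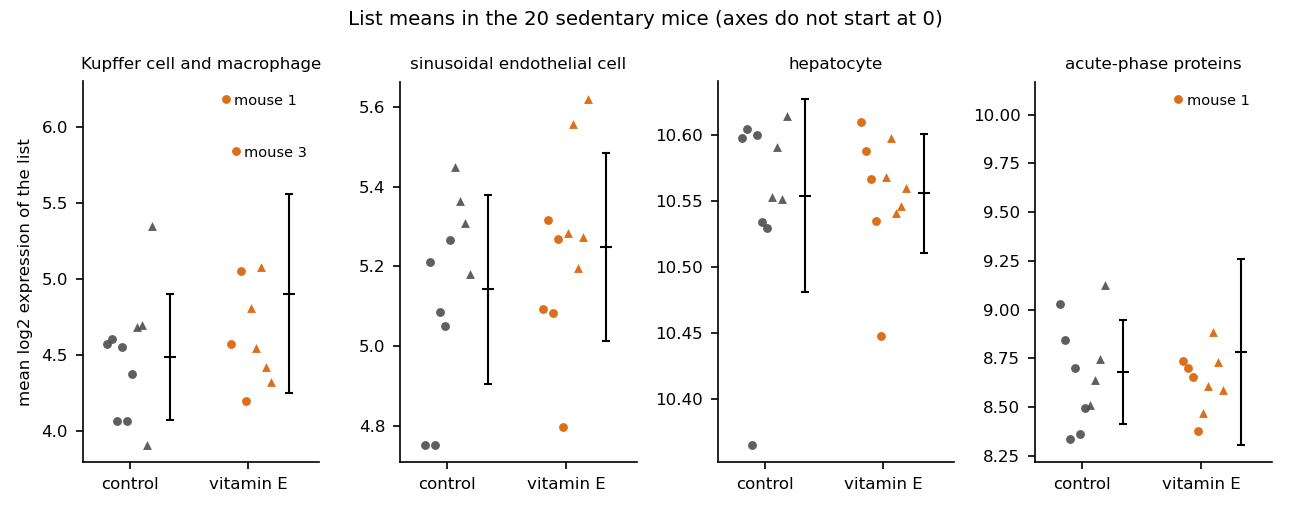
Mean log2 expression of 4 gene lists (y axis) in each of the 10 control-fed (grey) and 10 vitamin E (orange) sedentary mice; circles are animals with numbers beginning with 24, triangles with 27, and bars give the mean ± SD. Vitamin E mice 1 and 3 lie above every other mouse for Kupffer cell genes (6.18 and 5.84), and mouse 1 for acute-phase genes (10.08).

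**Figure D4:**
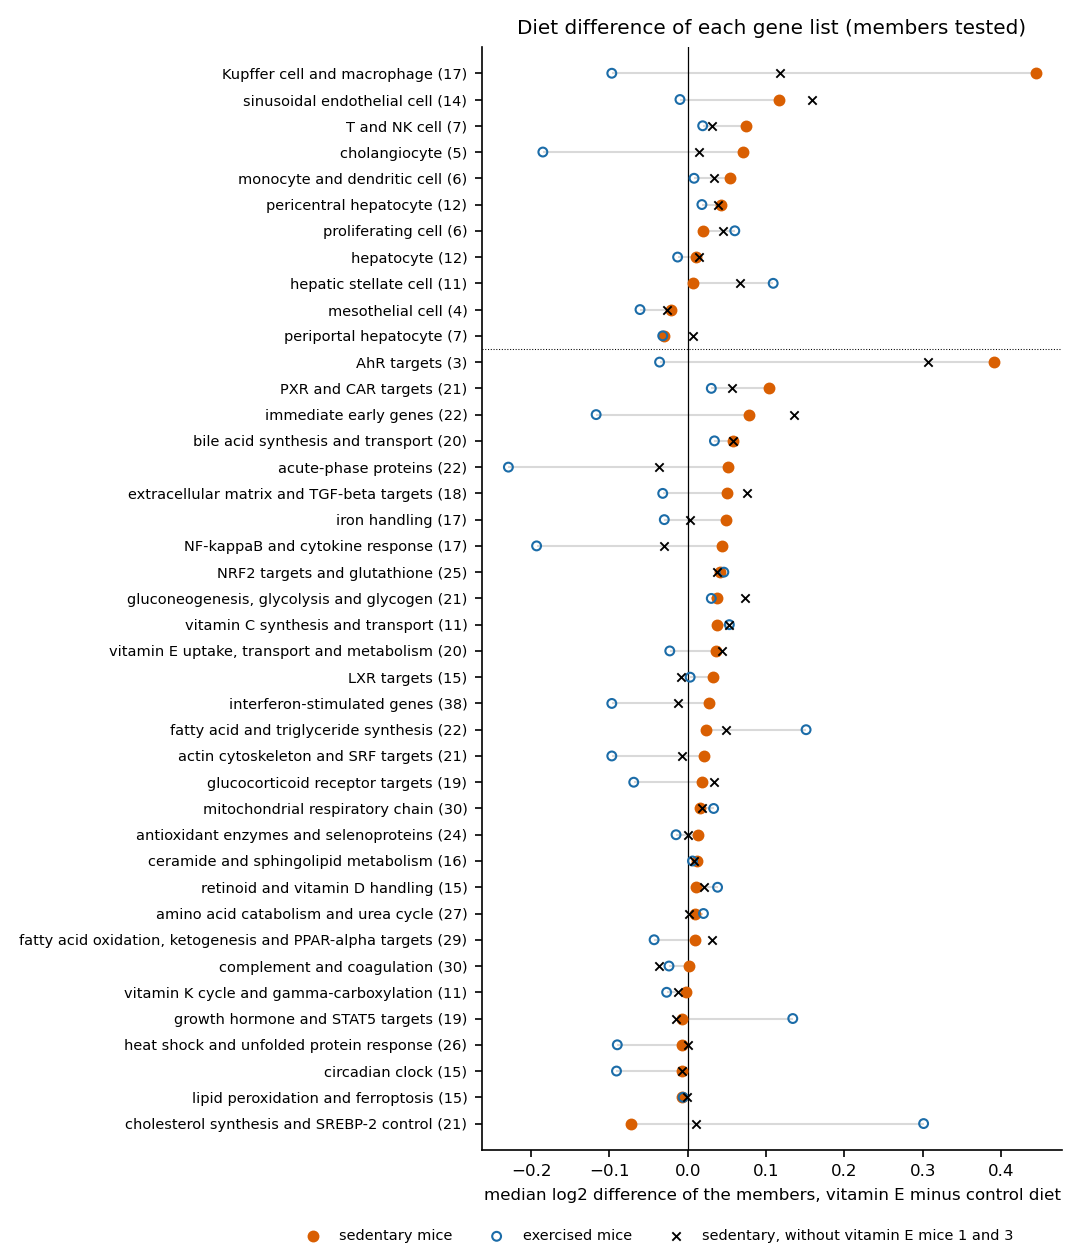
Median log2 difference between diets (x axis) of the members of each gene list with 3 or more measured genes, their number in brackets, with cell types above the dotted line. Filled orange circles show sedentary mice, open blue circles exercised mice and crosses sedentary mice without vitamin E mice 1 and 3. The Kupffer cell list is farthest to the right at 0.44 and drops to 0.12 without the pair.

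Wide differences were found in growth-related early response genes, where the vitamin E mice split into a high and a low set. The transcription factor Myc ran from 2.58 to 5.52 in control-fed mice (median 3.47) and from 2.49 to 6.81 in vitamin E mice (median 6.39). Vitamin E mice 3, 4, 7, 8, 9 and 10 lay between 6.33 and 6.81, above every control-fed mouse, mouse 1 was at 4.58, and mice 2, 5 and 6 were at 2.49 to 3.13. The difference of means was 1.59 (95% interval 0.52 to 2.65, adjusted p = 0.890 in limma) and the fold of medians 7.60. Gadd45g, a stress and growth arrest gene, was also high in these mice: 6.48 to 7.37 in those 6, 6.63 in mouse 1 and 4.03 to 5.27 in mice 2, 5 and 6. Its control-fed values were 4.18 to 6.85 (median 5.10), and the difference of 1.08 had an unadjusted p of 0.00106 and an adjusted p of 0.803 in limma. In control-fed mice, numbers 5 and 9 had the highest Myc (5.52 and 5.29) and the highest Gadd45g (6.85 and 6.35).

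Foxq1, a forkhead factor chosen after its values were seen, followed the same mice, with 7.30 to 7.95 in vitamin E mice 3, 4, 7, 8, 9 and 10 and 4.33 to 5.82 in the other 4, and with control mice 5 and 9 at 7.09 and 6.56 above the rest of their group. The difference was 1.24 (unadjusted p = 0.0168), and the weaker second probe set of the gene gave 0.50. Dusp1, a phosphatase that switches off MAP kinases, ran from 5.35 to 6.02 (median 5.64) against 5.66 to 6.72 (median 6.16), a difference of 0.47 (unadjusted p = 0.00297). The same 6 vitamin E mice were at 6.06 to 6.72, above all control-fed mice, and the other 4 at 5.66 to 5.82. Csrnp1, an early response transcription factor, differed by 0.65 (1.81 to 4.14, median 2.91, against 2.94 to 4.42, median 3.72). These genes differed more in number series 27 than in series 24: 2.23 and 0.94 for Myc, 1.80 and 0.43 for Gadd45g, 1.88 and 0.67 for Foxq1, 1.00 and 0.34 for Csrnp1 and 0.54 and 0.35 for Dusp1. The difference between the series was not tested. Over the whole early response list, of 22 measured members 16 had a higher mean, against 56% over all probe sets, and 4 an unadjusted p under 0.05, all higher (Myc, Gadd45g, Dusp1 and Csrnp1), against 2.8%. Egr1, Ier2 and Klf4 differed by -0.25, -0.04 and -0.26. The list median was 0.08, and the list mean per mouse was 3.60 ± 0.14 in control-fed and 3.81 ± 0.23 in vitamin E mice (SD, n = 10 each).

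**Figure D5:**
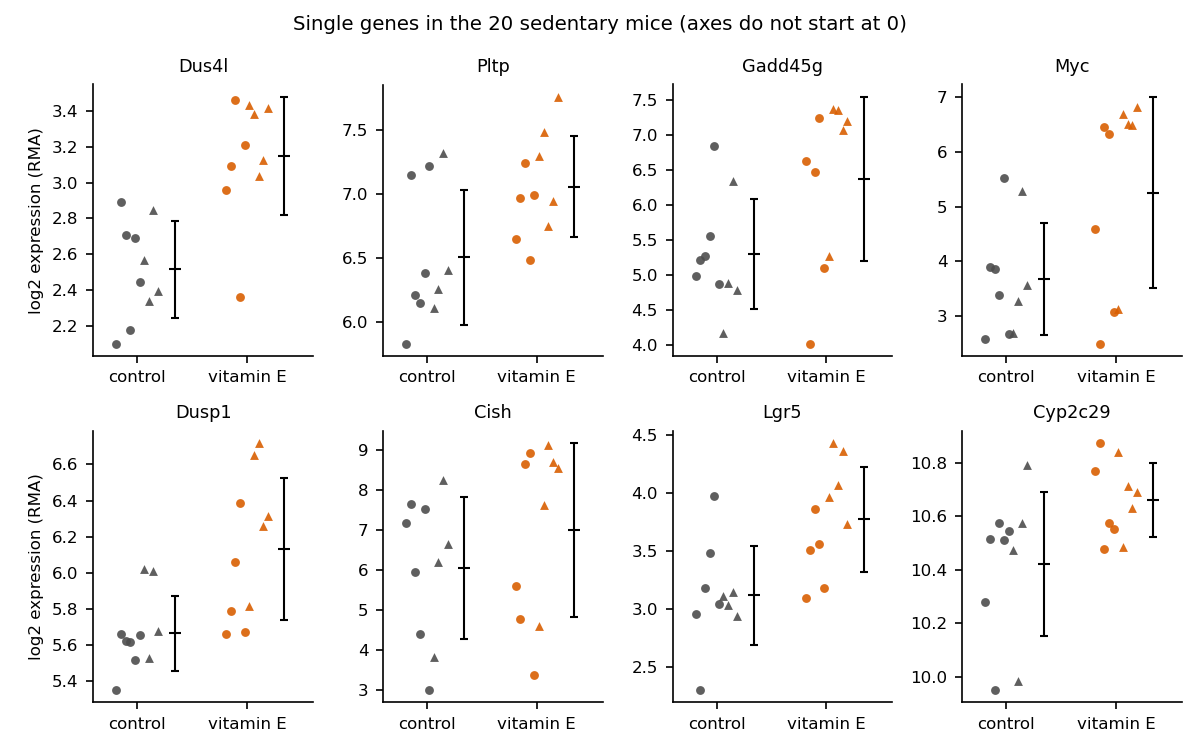
Log2 expression (y axis) of 8 genes in each control-fed (grey) and vitamin E (orange) sedentary mouse; circles are animals with numbers beginning with 24, triangles with 27, and bars give the mean ± SD of n = 10. Myc and Dusp1 have 6 vitamin E mice above all control-fed mice, Gadd45g 5 and Dus4l 9.

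Growth hormone is secreted in pulses in male rodents, and each pulse activates STAT5 in the liver, which induces the feedback inhibitors Cish and Socs2 and represses Bcl6. Cish ran from 2.99 to 8.25 (median 6.42) on the control diet and from 3.38 to 9.13 (median 8.10) on vitamin E, so that the difference of 0.94 had an interval from -0.50 to 2.37; it was 0.32 in number series 24 and 1.5 in series 27. Vitamin E mice 3, 4, 7, 8, 9 and 10 held 7.64 to 9.13 and the other 4 held 3.38 to 5.61, while 5 of these 6 mice, all but mouse 7, were above every control-fed mouse. Among control-fed mice, number 9 was the highest at 8.25, and mice 4, 6 and 7 were the lowest at 4.39, 2.99 and 3.81. In these control-fed mice Bcl6, a transcriptional repressor, was ordered the other way. It was highest in control mice 4, 6 and 7 at 7.88 to 8.58 and lowest in control mouse 9 at 5.47. In vitamin E mice Bcl6 ran from 7.05 to 8.62. Between the diets Bcl6 and Cish differed in the same direction: the mean difference of Bcl6 was 0.87 (unadjusted p = 0.0197 in limma), and all 10 vitamin E mice were above its control mean. Socs2 ran from 1.05 to 6.01 against 2.60 to 5.62, a difference of 0.68 (interval -0.45 to 1.80). Weaker probe sets of Cish and Socs2 gave differences of 0.75 and 0.02. The other members ranged down to Moxd1 at -0.87 (interval -2.63 to 0.88; -0.41 in number series 24 and -1.80 in series 27) and Elovl3, a fatty acid elongase, at -0.41, while Igf1, the growth hormone receptor Ghr and the urinary protein Mup20 were at -0.02, -0.03 and 0.01. The 19 measured genes of the list had a median of -0.01, with 9 higher and 10 lower means, and 11 had intervals within 0.5.

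A promoter search covered Cish, Socs2, Myc, Gadd45g, Bcl6, Foxq1 and Dusp1, and no other gene of these paragraphs. The promoters of Cish and Dusp1 are shown because each had a single window in the RefSeq table and that window holds a searched motif. The windows run from 250 bases before to 50 after the start site in build GRCm38.p6. In the promoter of Cish (chr9:107296409-107296708, plus strand) capitals mark 2 copies of TTCNNNGAA, the palindrome bound by STAT5, searched on both strands; 8.3% of 32851 promoter windows of 300 bases hold it. In that of Dusp1 (chr17:26508423-26508722, minus strand) capitals mark TGACGTCA, the cAMP response element, which 1.79% of the windows hold.
Cish: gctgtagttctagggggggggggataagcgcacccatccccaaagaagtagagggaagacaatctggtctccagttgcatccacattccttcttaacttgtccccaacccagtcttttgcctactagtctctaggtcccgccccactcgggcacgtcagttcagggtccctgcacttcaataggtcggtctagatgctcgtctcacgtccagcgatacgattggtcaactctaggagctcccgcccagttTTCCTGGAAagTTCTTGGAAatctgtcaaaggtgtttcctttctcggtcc
Dusp1: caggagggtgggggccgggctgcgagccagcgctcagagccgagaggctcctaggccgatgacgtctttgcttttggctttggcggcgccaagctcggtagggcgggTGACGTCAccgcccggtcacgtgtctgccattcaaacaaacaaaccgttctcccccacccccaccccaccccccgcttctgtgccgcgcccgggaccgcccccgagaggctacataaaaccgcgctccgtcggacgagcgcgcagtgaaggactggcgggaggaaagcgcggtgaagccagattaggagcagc
Neither motif was found in the window of Gadd45g, and the windows of Bcl6 held 3 and 1 copies of TTCNNNGAA. No window was listed for Myc, Foxq1 or Socs2. A match describes letters in the window and not a bound site.

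Clock and glucocorticoid genes, whose levels follow the time of day, were compared as well. Of 15 clock genes only Bhlhe40, a repressor of the clock also known as Dec1, was lower at an unadjusted p under 0.05, against 1.97% over all probe sets. It ran from 6.90 to 8.38 (median 7.51) on the control diet and from 6.81 to 7.72 (median 6.99) on vitamin E. The difference was -0.42 (unadjusted p = 0.00331 in limma), or -0.28 in number series 24 and -0.64 in series 27. The list median was -0.01. Of 19 glucocorticoid receptor targets, Dusp1 and Zbtb16, a zinc finger repressor, were higher at an unadjusted p under 0.05 in limma, against 2.8% over all probe sets. Dusp1 is also a member of the early response list above. Zbtb16 was at 4.22 to 6.66 against 5.87 to 6.94, a difference of 0.65. The list median was 0.02. Depp1, a FOXO target that promotes autophagy and was chosen after its values were seen, was 6.75 ± 0.71 in control-fed and 5.96 ± 0.65 in vitamin E mice (SD, n = 10 each) and differed by -0.80 (unadjusted p = 0.00207).

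The diet difference at rest was then set against that after exercise, in mice that share no animal with it. After exercise, 0 probe sets passed adjustment in limma (0%) and 1038 an unadjusted p of 0.05 (5.6%). The interaction passed an adjusted p of 0.05 in 0 of 18522 probe sets in limma (0%) and an unadjusted p of 0.05 in 1016 (5.49%), so for no gene was the diet difference shown to depend on exercise. The smallest p were those of Bid, a cell death agonist (difference of -0.36 at rest and 0.28 after exercise, p = 0.000164, adjusted p = 0.771), Dus4l (0.63 and -0.09), Srrm4, a splicing regulator (0.33 and -0.37), Mill2, an MHC class I-like protein (0.50 and -0.30), and Zfp703 (0.45 and -0.23). Pltp differed by 0.55 at rest and 0.51 after exercise, and Ces2a by 0.29 and 0.31. Lgr5 differed by 0.66 and -0.32 (interaction unadjusted p = 0.000803), Myc by 1.59 and 0.31 and Gadd45g by 1.08 and -0.10 (interaction unadjusted p = 0.00703). The Kupffer cell list had medians of 0.44 and -0.10, and the cholesterol synthesis list of -0.07 and 0.30.

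MicroRNA genes were also on the array, measured mainly as precursors. Of 88 measured, 4 were higher and 2 lower at an unadjusted p under 0.05 (6.82%, against 4.77% over all probe sets), and 0 passed adjustment in limma. Of the 4 called genes with a listed mature sequence, Mir5123 differed by 1.02 (0.76 to 3.10, median 1.51, against 1.14 to 4.97, median 1.93), Mir1970 by -0.78 (0.56 to 4.00, median 2.31, against 1.05 to 2.91, median 1.57; -0.01 in number series 24 and -1.78 in series 27), Mir761 by 0.52 (1.97 to 4.57, median 3.86, against 3.56 to 4.90, median 4.27) and Mir299a by 0.24. Larger differences than that of Mir761 were also found in Mir1192 (0.56), Mir122 (-0.56), Mir483 (0.54) and Mir1943 (-0.53), at an unadjusted p above 0.05. All 4 overlapped between the diets. Their mature sequences, which RefSeq gives for 4 of the 6 genes, are shown to identify the products, with the seed (bases 2 to 8) in capitals.
mmu-miR-5123 (chr4:40850057-40850080, minus strand): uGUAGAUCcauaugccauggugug
mmu-miR-1970 (chrX:135786174-135786196, minus strand): uGUGUCACuggggauaggcuuug
mmu-miR-761 (chr4:109017669-109017690, plus strand): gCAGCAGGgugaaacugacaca
mmu-miR-299a-5p (chr12:109710644-109710665, plus strand): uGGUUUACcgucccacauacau
mmu-miR-299a-3p (chr12:109710676-109710697, plus strand): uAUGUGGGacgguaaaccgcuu
None of these seeds is shared. Mir151 and Mir669m-2 differed by -0.47 and 0.38. Of 40 small nucleolar RNAs, 7.5% were at an unadjusted p under 0.05, against 4.77% over all probe sets. Their median difference was -0.045, with 18 higher and 22 lower means. Snora31 and Snord16a, a guide of ribosomal RNA methylation, were higher by 0.77 and 0.73. Snord118, the U8 RNA needed for ribosomal RNA processing, differed by -0.45 (5.53 to 7.48, median 7.06, against 5.22 to 7.06, median 6.57). Each of these had an unadjusted p under 0.05 and an adjusted p of 0.803 or above in limma.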

How the data were processed

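RNA from 44 mouse livers had been labelled and hybridised to Affymetrix Mouse Gene 2.1 ST arrays, and the authors had processed the arrays by RMA in Affymetrix Expression Console. The deposited values are log2 expression of 41345 probe sets, which were used as deposited. RMA pulls low values together, so log2 differences of weak probe sets are understated. Symbols came from the array's annotation (23521 probe sets with exactly 1) and were updated through RefSeq of GRCm38.p6.

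As in the methods of the study, probe sets were kept whose group average exceeded 4 on the linear scale in any group: 18522, of which 11565 had 1 symbol, for 10921 genes. A coefficient for each of the 4 groups was estimated from all 44 arrays (limma 3.58.1, R 4.3.3), with two-sided moderated tests and p-values adjusted by Benjamini-Hochberg for the 18522; an unadjusted p under 0.05, alone and with a fold of medians above 1.2, was applied beside it. The procedure was tested on simulated data. The 45 gene lists (806 genes) received counts and medians only. Genes were named by rule: the 10 per direction with the smallest p, genes the study names, up to 3 per list with the smallest p or, for cell types, the highest mean, and 5 for the interaction; the probe set with the highest mean stood for a gene. List members outside this rule, Foxq1, Cish, Socs2, Depp1, Saa3, Orm2, Mertk, Adgre4, Ccl24, Tlr13, Spic, Cxcl13 and the small RNAs were added after their values were seen. The gene lists and their members were chosen with earlier results of these data known. Alternatives were other filters, scalings, fits and probe set rules, the number series, the replicate number as a block, and leaving out each mouse. Replicate numbers do not pair the mice. Figures were drawn with Python 3.11.15.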

Additional observations from a re-analysis of the deposited data

Results flagged for a closer look

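Within the groups of 10 mice, the highest or lowest mouse was checked for its distance from the others over 71 genes and 41 list means. The 71 were not all genes named above. Saa3 and Orm2, at 9.72 and 10.98 in vitamin E mouse 1, were not among them and are not in the count. In 19 of 224 groups (8.48%) that mouse stood apart from the rest by more than Dixon's critical ratio at the 95% level, where chance gives about 5%.

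Of the genes, control mouse 7 was low for Angptl4 (6.84) and Ppargc1a (4.54) and apart for the pancreatic lipase cofactor Clps (3.14). Other control-fed mice that stood apart were mouse 6 for Cyp2e1 (11.53), mouse 10 for Nhlrc1 (3.42) and mouse 8 for Tap2 (1.6). On vitamin E, mouse 4 was low for Dus4l (2.36), mouse 5 stood apart for the betaine methyltransferase Bhmt (3.03) and mouse 10 was high for Tiparp (4.62).

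Of the list means, vitamin E mouse 1 was high for acute-phase proteins (10.08), interferon-stimulated genes (5.39), antioxidant enzymes (7.81) and cholangiocyte genes (4.22). Vitamin E mouse 5 was low for hepatocyte genes (10.45) and mouse 2 high for mesothelial genes (4.52). Among control-fed mice, mouse 3 was low for hepatocyte genes (10.36), mouse 4 high for monocyte and dendritic cell genes (4.50), mouse 7 high for heat shock genes (7.87) and mouse 1 low for retinoid and vitamin D genes (6.60).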

How the results depend on the processing

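The count of adjusted calls was 0 in every setting that kept all mice and with vitamin E mice 1 and 3 left out together, and between 0 and 1 when leaving out 1 mouse, with 1 call each without control mouse 2 and without vitamin E mouse 4. Counts at an unadjusted p under 0.05 were outside 1.5 times the values given above only where fewer or more probe sets were tested. The 518 higher became 929 with no filter, 163 with the stricter filter, 335 with only single-symbol probe sets and 319 with a gene's probe sets averaged, and the 365 lower became 1094, 72, 170 and 156. With the fold of medians, 379 higher became 631, 75, 215 and 202, and 289 lower became 705, 38, 114 and 102. The 1016 for the difference between states became 2187, 341, 613 and 572. Leaving out 1 mouse gave 479 to 624 higher and 330 to 408 lower, 355 to 435 and 256 to 311 with the fold, and 962 to 1120 for the difference.

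With the replicate number as a block, 534 were higher and 372 lower and 0 passed adjustment; same-numbered mice had correlations of deviations from -0.04 to 0.05, and 0 of 10 correlated best with its own number, so the numbers do not pair the mice. Of 49 genes followed, 46 kept their direction in all settings. Cpt2 was 0.001 in number series 24 alone. Pdk4 was 0.11 without vitamin E mice 1 and 3 and -0.249 to 0.015 when leaving out 1 mouse. Irs2 was -0.004 with the number series as a block, -0.20 in series 24 alone and -0.072 to 0.163 when leaving out 1 mouse. The causes of these shifts were not tested. The number of mice limits differences below the interval widths given above.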
